A study of Homo sapiens with 15 samples.

Results

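The Wnt pathway was read out through 48 genes chosen by name, from secreted ligands and their receptors to β-catenin, the TCF/LEF transcription factors and genes that β-catenin is reported to induce. All 48 were found among the 60664 entries of the gene table by symbol and Ensembl identifier, and 38 of them passed the filter on low counts that left 19516 genes for testing. Sequencing covered 15 libraries, 5 groups of 3, of the HER2-amplified human breast adenocarcinoma line KPL4. LY500307 and vehicle cells were knockout cells with exogenous estrogen receptor β (ERβ, encoded by ESR2) kept for 72 h in 1% charcoal-treated serum without phenol red, before 24 h of the ERβ agonist LY500307 (200 nM) or of DMSO. Add-back cells carried the same exogenous ERβ in growth medium with 7% serum and no DMSO, knockout cells had lost ERβ, and control cells kept their own receptor, both in that growth medium. Growth medium also held insulin and hydrocortisone, per the labels. How ERβ was removed or put back, and whether a group came from 1 clone, is not given in the sources used here.

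In the canonical branch of the pathway, a Wnt ligand bridges a Frizzled receptor and the coreceptor LRP5 or LRP6, Dishevelled proteins are recruited, and the complex of AXIN, APC and GSK3 that marks β-catenin for destruction is held back. β-catenin then enters the nucleus and joins TCF/LEF factors at target genes, several of which (AXIN2, NKD1, RNF43, ZNRF3, LGR5) feed back on the pathway. Ligands such as WNT5A mostly act without β-catenin, through Frizzled and ROR receptors. In the mammary gland the pathway is known for its part in the upkeep of stem and progenitor cells. RNA levels of its parts do not measure the activity of the pathway.

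Libraries held 12614074 to 19390378 expected counts. Levels are CPM, counts relative to library size, scaled with TMM factors, given for single libraries or as mean ± SD over 3 libraries, and fold changes are log2 values ± SE. A gene was called when its Benjamini-Hochberg adjusted p over all 19516 genes was under 0.05 in edgeR's quasi-likelihood test, and every adjusted p comes from that test unless another is named. The labels do not state that libraries of a group came from separate cultures, so p-values reflect only how far libraries differ, which may be technical. Markers of HER2-amplified breast epithelium were present in all libraries, with ERBB2 at 3410 to 6330 CPM. ESR2 averaged 43.9 ± 1.36 CPM with LY500307, 45.2 ± 3.24 with vehicle, 32.8 ± 1.94 in add-back, 4.41 ± 1.36 in knockout and 5.76 ± 0.867 in control cells. RNA can persist from a gene whose reading frame is broken, so this level does not check the knockout label. Since a library pools all its cells, a lower level in every cell and fewer cells that express a gene cannot be told apart.

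Per kilobase of transcript in control cells, CTNNB1, the gene of β-catenin, stood at 135.9 CPM per kb and WNT5A at 117.9. They were followed by the Frizzled gene FZD6 (33.2), the secreted inhibitor DKK1 (26.6) and the Dishevelled genes DVL3 (24.1) and DVL2 (21.5). AXIN2, the most used readout gene of β-catenin, was at 0.514 CPM per kb and NKD1 at 0.0153. Length is the mean annotated transcript length weighted by transcript counts. GSK3B was left out because only 30.6% of its counts lay in transcripts of that annotation, and PORCN is less certain, with 73.6%.

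**Figure D1:**
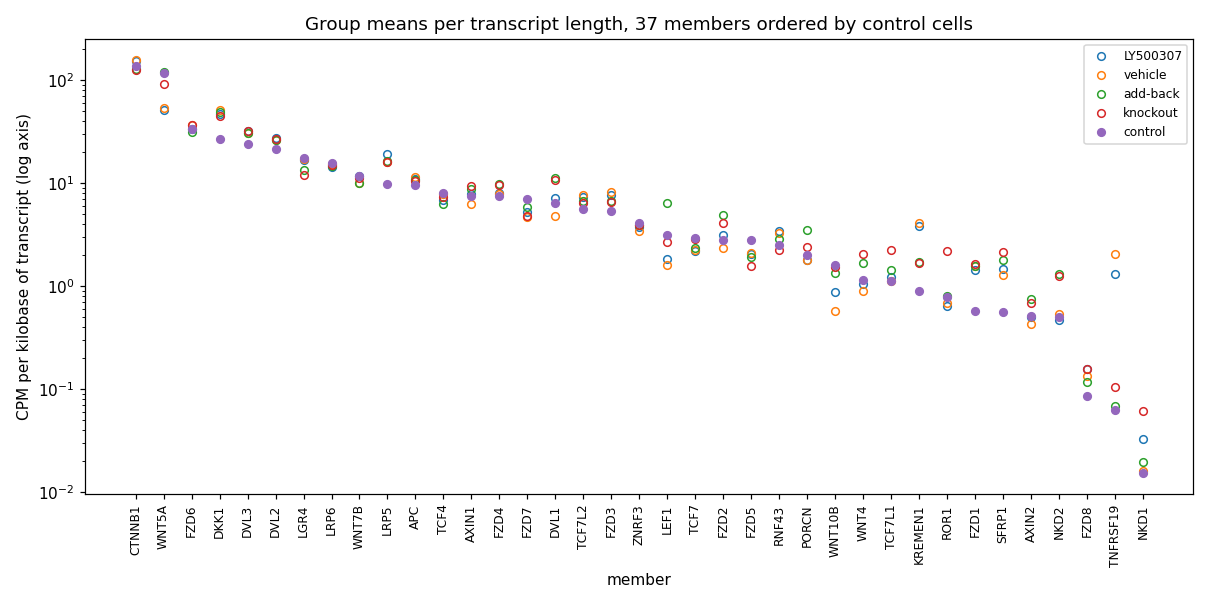
Group means per kilobase of transcript (CPM per kb, log axis) of 37 members, ordered by their level in control cells, with 1 symbol colour for each group. CTNNB1 and WNT5A lead in all groups, and TNFRSF19 and NKD1 are the lowest in control cells.

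The 10 members under the filter were the ligands WNT3A, WNT5B, WNT6 and WNT10A, the ligand carrier WLS, the receptors ROR2, LGR5 and LGR6, and the β-catenin targets NOTUM and SP5. Their reads summed over 15 libraries ran from 4 (WNT6) to 66 (ROR2), with 20 for WNT3A and 40 for LGR5. LGR5, a receptor of R-spondins and a marker of Wnt-driven stem cells in the gut, had 1 to 9 reads per library. These members were tested only in the alternative with no filter, where ROR2 alone was called, at 1.75 in knockout against control (adjusted p = 0.018) and -1.91 in add-back against knockout cells (adjusted p = 0.0166). ROR2, a receptor of WNT5A, had 1, 5 and 2 reads in add-back, 11, 6 and 11 in knockout and 2, 2 and 4 in control libraries. Knockout libraries were above all add-back and control libraries.

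In knockout against control cells 25 of the 38 members were called, or 65.8% beside 46.0% of all genes tested, 20 higher (23.4% of all genes) and 5 lower (22.6%). The members' median log2 fold change was 0.31, that of all genes -0.00. In add-back against knockout cells 11 were called, or 28.9% beside 19.6% of all genes, 6 higher (10.4% of all genes) and 5 lower (9.19%), with medians of 0.02 and -0.01. Under LY500307 against vehicle 5 were called, or 13.2% beside 7.12%, 3 higher (4.77% of all genes) and 2 lower (2.35%), with medians of 0.02 and -0.02. Against control, add-back cells had 26 calls, or 68.4% beside 45.8%, 19 higher (23.2% of all genes) and 7 lower (22.7%), with medians of 0.27 and -0.02. Vehicle against add-back cells, which differ in medium, serum and DMSO at once, gave 23 calls, or 60.5% beside 48.1%, 9 higher (26.4% of all genes) and 14 lower (21.6%), with medians of -0.03 and 0.01. The effects of medium, serum and DMSO cannot be told apart in this last comparison. Neighbouring comparisons share the knockout, add-back, vehicle or control libraries, so that their values are given side by side and are not independent.

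**Figure D2:**
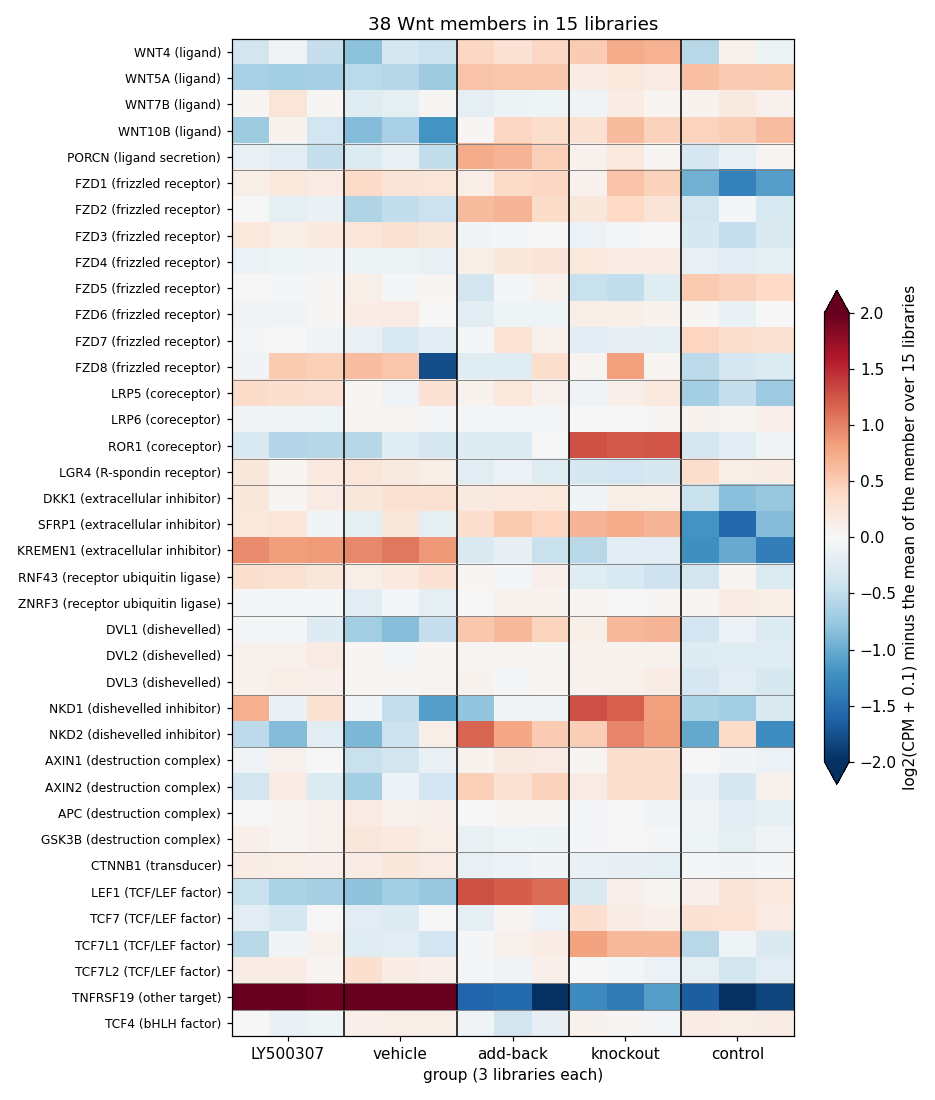
Level of the 38 tested members (rows, with their role) in each of the 15 libraries (columns), as log2(CPM + 0.1) minus the member's mean over all libraries, with colours capped at -2 and 2. LEF1 is highest in the 3 add-back libraries, ROR1 in the 3 knockout libraries and TNFRSF19 in the 6 LY500307 and vehicle libraries.

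Fold changes also moved with base composition. In knockout against control cells the median log2 fold change of all genes was -0.13 in the lowest, -0.06 in the middle and 0.23 in the highest of 3 equal classes of GC content. Under LY500307 against vehicle these medians were -0.08, -0.03 and 0.12, and in vehicle against add-back cells 0.15, 0.07 and -0.26. The tested members had a median GC content of 51.7%, beside 48.1% over all genes tested, and 17 of the 38 were in the highest class. Offsets that remove a trend on GC content and length from each library were then used. With them 23 of the 38 members were called in knockout against control cells, 15 higher and 8 lower. Of all 19516 genes 8162 were called with the offsets, 3262 higher and 4900 lower. Thus 40.0% of all calls were higher, beside 50.8% without offsets. Of the 25 calls, 19 were made again in the same direction and 1, AXIN1, in the opposite one. The corresponding count was 1 of 5 for LY500307 against vehicle and 11 of 11 for add-back against knockout cells.

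**Figure D3:**
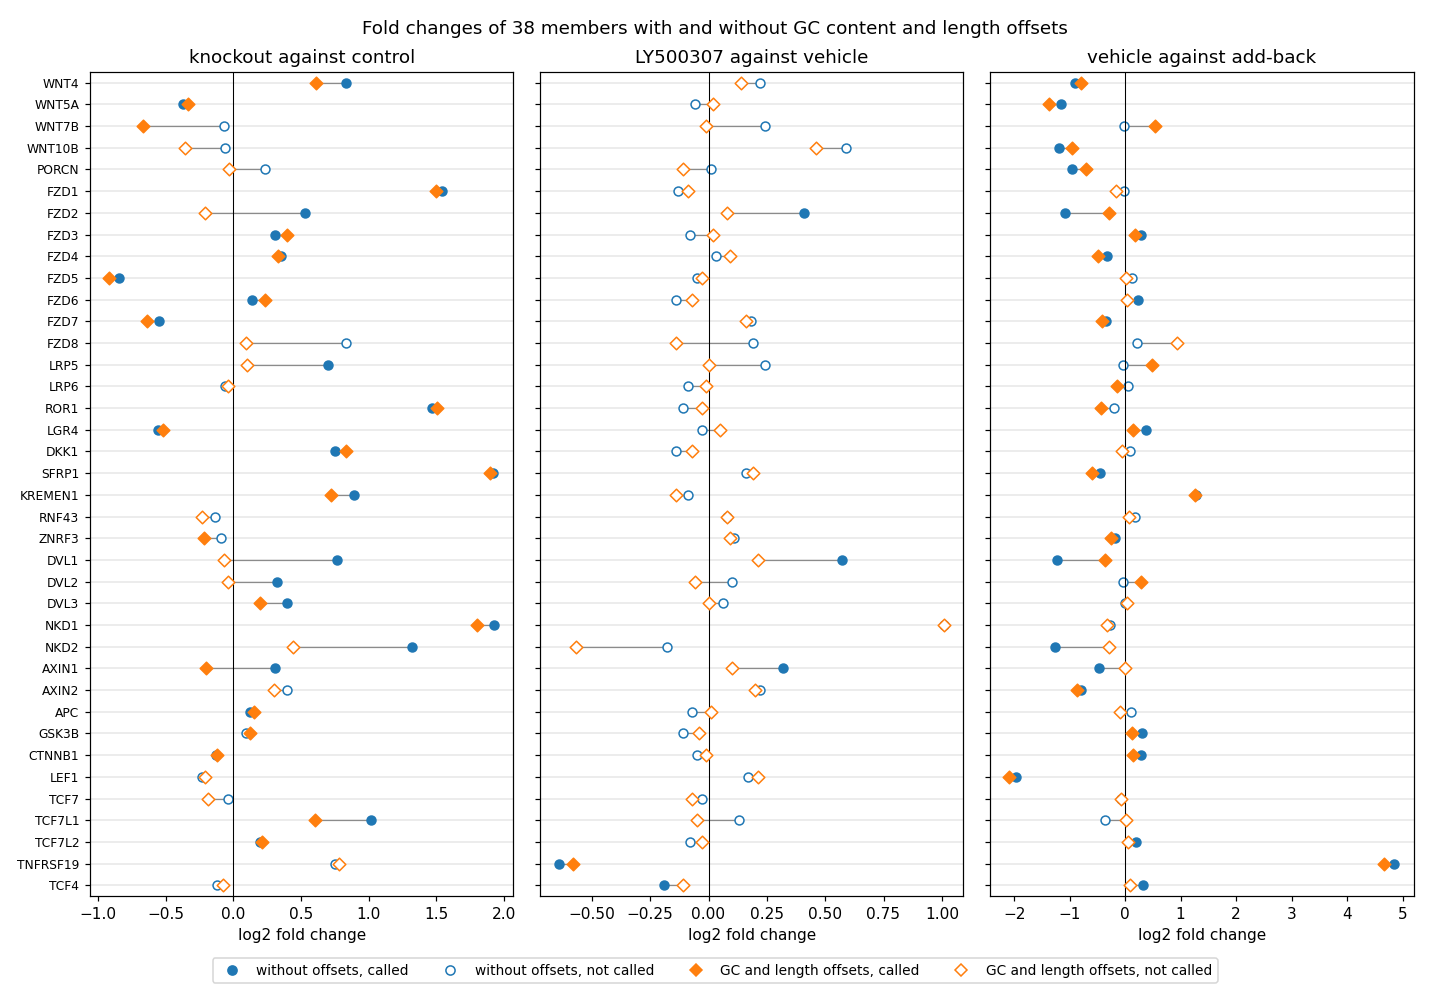
Log2 fold change of 38 members (rows) in knockout against control, LY500307 against vehicle and vehicle against add-back cells (panels), without offsets (circles) and with GC content and length offsets (diamonds), filled where called. SFRP1, FZD1 and ROR1 keep their value in knockout against control cells, whereas DVL1, DVL2, FZD2 and AXIN1 cross 0.

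Of the 4 ligands tested, WNT5A, which signals mostly through Frizzled and ROR receptors without β-catenin, was by far the most expressed. It had 712, 709.9 and 697 CPM in the add-back libraries, 531, 555 and 539 in the knockout libraries and 728, 686 and 692 in the control libraries. All knockout libraries lay below all add-back and control libraries, and add-back and control libraries overlapped. WNT5A fell in knockout against control cells (-0.37 ± 0.04, adjusted p = 9.58e-08) and rose in add-back against knockout cells (0.38 ± 0.04, adjusted p = 3.61e-07). With LY500307 it had 306, 301 and 303 CPM and with vehicle 329, 325 and 293. These 6 libraries were lower than all others, and vehicle against add-back cells gave -1.16 ± 0.04 (adjusted p = 1e-14), whereas LY500307 and vehicle libraries overlapped.

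RSEM divided the WNT5A reads among 7 annotated transcripts. The minor coding transcript WNT5A-202 took 8.67 ± 0.766% of them in add-back and 9.51 ± 1.11% in knockout cells. It took 2.22 ± 1.92% with LY500307, 2.56 ± 2.41% with vehicle and 2.84 ± 0.767% in control cells (SD, n = 3 each). The 3 libraries of add-back and of knockout cells were all above those of the other 3 groups. These shares are estimates from short reads and were not tested.

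WNT10B, a ligand of the canonical branch, was low. It had 1.47, 2.60 and 1.88 CPM with LY500307, 1.31, 1.55 and 1.02 with vehicle, 2.52, 3.31 and 3.19 in add-back, 3.06, 3.88 and 3.43 in knockout and 3.41, 3.50 and 3.85 in control libraries. Vehicle libraries were lower than all add-back libraries (-1.20 ± 0.22, adjusted p = 0.000147), and the untreated groups were not called against each other. WNT4, which acts downstream of hormones in the mammary gland, rose in knockout against control cells (means 7.44 ± 0.653 and 4.18 ± 0.922 CPM; 0.83 ± 0.16, adjusted p = 0.000235) and fell in vehicle against add-back cells (-0.90 ± 0.16, adjusted p = 0.000123). WNT7B was called only in add-back against control cells (-0.23 ± 0.07, adjusted p = 0.0157), and that call was lost without add-back replicate 1 (adjusted p = 0.103) or 2 (0.057) and without control replicate 2 (0.095) or 3 (0.0532). With the offsets WNT7B was -0.83 in add-back against control cells (adjusted p = 6.09e-10), and it was also called in knockout against control (-0.67, adjusted p = 9.45e-09) and in vehicle against add-back cells (0.54, adjusted p = 3.06e-07).

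PORCN, the acyltransferase that attaches the lipid each Wnt ligand needs for secretion, was raised in add-back cells. It had 3.23, 3.02 and 2.52 CPM with LY500307, 2.94, 3.20 and 2.52 with vehicle, 6.02, 5.80 and 4.98 in add-back, 3.78, 4.11 and 3.61 in knockout and 2.80, 3.21 and 3.73 in control libraries. The 3 add-back libraries were above all others. The difference was called against knockout (0.55 ± 0.14, adjusted p = 0.0103), though not with DESeq2 (adjusted p = 0.0515), and against control cells (0.78 ± 0.15, adjusted p = 0.000257). Vehicle against add-back cells gave -0.95 ± 0.15 (adjusted p = 2.68e-05).

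All 8 Frizzled receptor genes passed the filter, and in knockout against control cells 5 were called higher and 2 lower, with FZD8 not called at under 1 CPM. In that comparison 23.4% of all genes were called higher and 22.6% lower. FZD1 had 9.51, 10.2 and 9.80 CPM with LY500307, 11.5, 10.5 and 10.3 with vehicle, 9.64, 11.4 and 11.7 in add-back, 9.26, 13.1 and 12.1 in knockout and 4.47, 3.36 and 4.04 in control libraries. Control libraries lay below the other 12, which spanned 9.26 to 13.1 CPM. FZD1 rose in knockout against control cells (1.54 ± 0.14, adjusted p = 2.95e-08) and in add-back against control cells (1.47 ± 0.14, adjusted p = 6.28e-08), and was not called in the remaining comparisons.

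The Frizzled genes FZD5 and FZD7 were lower in knockout cells. FZD5 had 10.6, 13.4 and 14.4 CPM in add-back, 10.1, 9.67 and 11.5 in knockout and 19.6, 18.9 and 18.1 in control libraries. For FZD7 the values were 20.3, 25.2 and 22.2 CPM in add-back, 18, 18.7 and 18.3 in knockout and 28.3, 26.3 and 26 in control libraries. Both fell in knockout against control cells, FZD5 by 0.85 ± 0.10 (adjusted p = 7.62e-07) and FZD7 by 0.55 ± 0.07 (adjusted p = 5.04e-06). In add-back against knockout cells FZD7 gave 0.31 ± 0.07 (adjusted p = 0.00598), and FZD5 gave 0.29 ± 0.10 (adjusted p = 0.0485), a call lost in 9 of 15 alternatives, among them those without knockout replicate 1 (adjusted p = 0.114) or 2 (0.134) and without add-back replicate 2 (0.138) or 3 (0.185). Add-back cells remained below control cells for both, FZD5 with -0.56 ± 0.09 and FZD7 with -0.24 ± 0.07, the FZD7 call being lost without add-back replicate 1 (-0.15, adjusted p = 0.0974) or control replicate 1 (adjusted p = 0.0617).

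Their genomic neighbours were lower too. FZD5 (chr2:207762586-207769563) and FZD7 (chr2:202034587-202038445, both GRCh38) lie on chromosome 2, and among the tested genes within 2 Mb of FZD5 15 of 20 were called lower in knockout against control cells and 1 higher, with a median of -0.64. Within 2 Mb of FZD7 25 of 38 were called lower and 1 higher, with a median of -0.54. The part of these neighbourhoods in the values of FZD5 and FZD7 was not tested. The neighbours of ROR1 had a median of -0.16, those of SFRP1 -0.01 and those of KREMEN1 0.14. Near AXIN1 59 of 98 were called higher, with a median of 0.44, and near DVL1 40 of 89, with 0.31. Near TNFRSF19 (-0.46) and FZD6 (-0.26) the median went against the member's own value. In vehicle against add-back cells the medians were -0.66 near AXIN1, -0.47 near DVL1, 0.34 near LGR4 and 0.18 near LEF1. Under LY500307 against vehicle they were 0.30 near AXIN1, 0.21 near DVL1 and -0.03 near FZD2. The part of neighbours in these members' values was not tested.

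With LY500307 FZD5 had 13.6, 13.3 and 13.9 CPM and with vehicle 14.8, 13.4 and 14.1, and neither it nor FZD7 was called under LY500307. FZD7 had 20.3, 20.7 and 19.8 CPM with LY500307 and 18.9, 16.9 and 18 with vehicle. FZD7 fell in vehicle against add-back cells (-0.34 ± 0.07, adjusted p = 0.000663), and FZD5 was not called there.

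The values of FZD2 depended on the offsets. It had 7.07, 6.10 and 6.40 CPM with LY500307, 4.57, 4.96 and 5.18 with vehicle, 10.9, 11.2 and 9.01 in add-back, 8.19, 9.21 and 8.39 in knockout and 5.38, 6.86 and 5.62 in control libraries. Its rise under LY500307 against vehicle (0.41 ± 0.12, adjusted p = 0.0499) lay at the threshold and was lost in 11 of 15 alternatives, among them those without vehicle replicate 1 (adjusted p = 0.172) or 2 (0.149) and without any 1 of the LY500307 libraries (0.0755 to 0.175). It was 0.08 with the offsets (adjusted p = 0.873). Knockout against control gave 0.53 ± 0.12 (adjusted p = 0.00124), and -0.21 with the offsets (adjusted p = 0.145). Vehicle against add-back cells gave -1.08 ± 0.12 (adjusted p = 2.8e-07), and -0.30 with the offsets (adjusted p = 0.0344).

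FZD6, the Frizzled gene with the highest level per kilobase, changed little. It had 102, 112 and 112 CPM in add-back, 130.3, 129 and 125 in knockout and 121, 108 and 118 in control libraries, and 114, 114 and 121 CPM with LY500307 and 132, 133 and 119 with vehicle. Knockout libraries were above all add-back libraries (-0.24 ± 0.05, adjusted p = 0.00243). Against control cells, FZD6 in knockout cells gave 0.14 ± 0.05 (adjusted p = 0.0271), and this call was lost without knockout replicate 1 (adjusted p = 0.0635) or 2 (0.0608) and without control replicate 2 (0.144). FZD6 was also called in vehicle against add-back cells (0.24 ± 0.05, adjusted p = 0.000644), but not with the offsets (0.04, adjusted p = 0.473). FZD3 and FZD4 were higher in knockout against control cells by 0.31 ± 0.05 (adjusted p = 1.94e-05) and 0.35 ± 0.04 (adjusted p = 1.7e-06). FZD4 overlaps PRSS23 on the opposite strand, which was at 138 CPM on average. Whether strand was used in counting is not given in the sources used here, so reads of overlapping genes on opposite strands could be shared.

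ROR1, a receptor tyrosine kinase that binds WNT5A, was higher in knockout cells than in all other groups. It had 3.79, 3.08 and 3.11 CPM with LY500307, 3.13, 3.95 and 3.68 with vehicle, 3.88, 3.87 and 4.73 in add-back, 11.5, 11.1 and 11.3 in knockout and 3.64, 4.0 and 4.49 in control libraries. The 3 knockout libraries were above all 12 others, none of which passed 4.73 CPM. ROR1 rose in knockout against control cells (1.47 ± 0.12, adjusted p = 1.09e-08) and fell in add-back against knockout cells (-1.44 ± 0.12, adjusted p = 5.38e-08), and add-back against control cells gave 0.03 ± 0.14 (adjusted p = 0.896). With the offsets the values were 1.51 and -1.42. RSEM assigned 78.6 to 100% of the ROR1 reads of a library to 1 coding transcript, ROR1-204, which starts inside the gene. ROR2, its paralog, stayed under the filter with 66 reads in all.

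Among the coreceptors of the canonical branch, LRP5 averaged 81.2 ± 7.62 CPM in knockout and 50.2 ± 5.16 in control cells (0.70 ± 0.09, adjusted p = 1.87e-06), but 0.10 with the offsets (adjusted p = 0.134). In add-back against control cells LRP5 was called at 0.74 ± 0.09 (adjusted p = 8.93e-07). That call was made again in all 15 alternatives, the offsets among them, at 0.14 to 0.84. LRP6 averaged 129 ± 1.39 CPM in knockout and 134 ± 3.47 in control cells and was not called. In add-back against control cells LRP6 was called at -0.09 ± 0.03 (adjusted p = 0.0402), which 11 of 15 alternatives lost, among them those without any 1 of the add-back libraries (adjusted p = 0.136 to 0.206) and without control replicate 1 (0.123) or 3 (0.25). LGR4, a receptor of R-spondins that shields Frizzled from degradation, had 66.9, 71.7 and 65.8 CPM in add-back, 61.6, 60.0 and 62.2 in knockout and 99.8, 85.1 and 86.4 in control libraries. It had 91.1, 79.5 and 88.8 CPM with LY500307 and 91.6, 88.1 and 84.5 with vehicle. All knockout libraries lay below all others, and the fall against control was -0.56 ± 0.06 (adjusted p = 4.25e-07). Add-back cells were also below control (-0.41 ± 0.06, adjusted p = 1.89e-05), and vehicle cells above add-back cells (0.37 ± 0.06, adjusted p = 4.22e-05; 0.14 with the offsets, adjusted p = 0.0452). Add-back against knockout cells gave 0.15 ± 0.06 for LGR4 (adjusted p = 0.0931), and 0.18 with the offsets, where it was called (adjusted p = 0.0335).

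RNF43 and ZNRF3 are membrane ubiquitin ligases that remove Frizzled receptors, and both are feedback targets of β-catenin. RNF43 had 18.4, 18.2 and 17.2 CPM with LY500307, 16.1, 16.9 and 18 with vehicle, 15.1, 14.4 and 15.7 in add-back, 12.4, 11.9 and 11 in knockout and 11.4, 15.2 and 12.2 in control libraries. Add-back libraries were above all knockout libraries (0.36 ± 0.09, adjusted p = 0.00922), and RNF43 was called in no other comparison. RNF43 overlaps SUPT4H1 on the same strand, which was at 38.3 CPM on average, so that reads in the overlap could be divided either way. ZNRF3 had 25.5, 25.3 and 25.6 CPM with LY500307, 22.3, 25.5 and 22.9 with vehicle, 25.9, 27.6 and 27.5 in add-back, 26.8, 26.2 and 26.4 in knockout and 26.7, 28.9 and 28.7 in control libraries. Its sole call was in vehicle against add-back cells (-0.19 ± 0.06, adjusted p = 0.00838), where all vehicle libraries were lower. With the offsets it was also called lower in knockout against control cells (-0.22, adjusted p = 0.00319).

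The 3 tested extracellular inhibitors, SFRP1, DKK1 and KREMEN1, were all called higher in knockout than in control cells, and all 3 remained higher in add-back than in control cells. Of all genes, 23.4% were called higher in the former comparison and 23.2% in the latter. SFRP1, which binds Wnt ligands outside the cell, had 6.39, 6.52 and 5.34 CPM with LY500307, 4.83, 6.51 and 4.84 with vehicle, 6.99, 8.01 and 7.47 in add-back, 8.91, 9.36 and 8.94 in knockout and 2.35, 1.79 and 2.97 in control libraries. Control libraries were the lowest. SFRP1 rose in knockout against control cells by 1.92 ± 0.16 (adjusted p = 1.2e-08), the largest called rise among members with a mean of at least 1 CPM, and by 1.65 ± 0.16 in add-back against control cells (adjusted p = 1.44e-07). Add-back and knockout cells were not called different (-0.27 ± 0.13, adjusted p = 0.165).

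DKK1, which binds LRP5 and LRP6 and is itself a target of β-catenin, had 76.5, 66.6 and 73.5 CPM with LY500307, 76.3, 81 and 81.1 with vehicle, 74.3, 74.5 and 76.1 in add-back, 63.1, 71.2 and 71.3 in knockout and 48, 36.5 and 38.5 in control libraries. Control libraries were below the other 12. The rise was 0.75 ± 0.08 in knockout (adjusted p = 2.13e-07) and 0.88 ± 0.08 in add-back cells (adjusted p = 2.68e-08), both against control, and DKK1 was not called in the remaining comparisons. Of its reads, RSEM gave the coding transcript 79.6 ± 2.42% in knockout and 71.5 ± 3.24% in control cells (SD, n = 3 each).

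KREMEN1, a receptor of DKK1 that helps to clear LRP6 from the surface, had 22.9, 21.1 and 21.4 CPM with LY500307, 23.2, 24.8 and 21.6 with vehicle, 9.64, 10.6 and 8.69 in add-back, 8.05, 10.1 and 10.2 in knockout and 5.0, 5.86 and 4.49 in control libraries. The 6 LY500307 and vehicle libraries were the highest and the 3 control libraries the lowest, with add-back and knockout libraries overlapping between them. Vehicle against add-back cells gave 1.27 ± 0.09 (adjusted p = 2.05e-09) and knockout against control cells 0.89 ± 0.13 (adjusted p = 8.94e-06). LY500307 and vehicle libraries overlapped and were not called different.

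The Dishevelled genes DVL1, DVL2 and DVL3 relay the signal from Frizzled into the cell, and all 3 were called higher in knockout against control cells, but the call of DVL3 alone remained with the offsets. Without offsets, 23.4% of all genes were called higher in that comparison. DVL1 had 20.6, 20.9 and 17.7 CPM with LY500307, 13.1, 11.6 and 15.4 with vehicle, 30.8, 33.3 and 28.9 in add-back, 22.9, 33.2 and 34 in knockout and 16.1, 19.4 and 17.5 in control libraries. Vehicle libraries were the lowest, and those of LY500307 were all above them (0.57 ± 0.13, adjusted p = 0.0139). With the offsets that difference was 0.21 (adjusted p = 0.209), and it was lost without vehicle replicate 1 (adjusted p = 0.066) or 2 (0.114) and without LY500307 replicate 1 (0.0629) or 2 (0.0702). Against control, knockout cells gave -0.07 for DVL1 with the offsets, beside 0.77 ± 0.13 without them (adjusted p = 5e-05). Vehicle against add-back cells gave -1.23 ± 0.13 (adjusted p = 1.68e-07), or -0.37 with the offsets (adjusted p = 0.000151). DVL2 gave 0.32 ± 0.04 and DVL3 0.40 ± 0.04 in knockout against control cells (adjusted p = 1.65e-06 and 8.46e-08), or -0.04 and 0.20 with the offsets.

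NKD1 and NKD2 bind Dishevelled and dampen the signal, and NKD1 is a feedback target of β-catenin. NKD1 had 0.736, 0.362 and 0.528 CPM with LY500307, 0.392, 0.267 and 0.136 with vehicle, 0.194, 0.387 and 0.383 in add-back, 1.14, 1.07 and 0.796 in knockout and 0.227, 0.214 and 0.316 in control libraries. These values stand for 13 to 16 reads in a knockout library, 3 to 7 in an add-back library and 3 to 5 in a control library. NKD1 passed the filter only through the knockout libraries, where it was high, and not the alternative filter of 1 CPM in 3 libraries, so its test is no independent support. Knockout libraries were the highest, and NKD1 rose against control (1.93 ± 0.42, adjusted p = 0.000804) and fell in add-back against knockout cells (-1.59 ± 0.39, adjusted p = 0.00619). Both calls were made again with the offsets, at 1.80 and -1.51.

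NKD2 had 0.792, 0.604 and 0.998 CPM with LY500307, 0.588, 0.854 and 1.29 with vehicle, 2.78, 2.10 and 1.73 in add-back, 1.71, 2.44 and 2.20 in knockout and 0.530, 1.57 and 0.442 in control libraries. Add-back and knockout libraries were the highest. It was called higher in knockout (1.32 ± 0.37, adjusted p = 0.00668) and in add-back against control cells (1.38 ± 0.37, adjusted p = 0.00446), and lower in vehicle against add-back cells (-1.27 ± 0.35, adjusted p = 0.00572). Control replicate 2 was the highest control library, and without it the values were 2.11 in knockout and 2.18 in add-back against control cells. Without control replicate 3 the call of knockout against control was lost (0.99, adjusted p = 0.05). With the offsets none of these 3 was called, at 0.44, 0.44 and -0.29.

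Of the 4 members of the destruction complex (AXIN1, AXIN2, APC and GSK3B), 2 were called higher in knockout against control, none in add-back against knockout and 1 higher under LY500307 against vehicle. Add-back against control cells had 3 called higher, and vehicle against add-back cells 1 higher and 2 lower. Of all genes, 23.4%, 10.4%, 4.77%, 23.2% and 26.4% were called higher in these comparisons, in that order, and 21.6% lower in the last. AXIN1, a scaffold of the complex, had 26.5, 29.6 and 27.6 CPM with LY500307, 20.5, 21.7 and 25.1 with vehicle, 29.5, 31.8 and 31.5 in add-back, 28.9, 35.7 and 34.9 in knockout and 27.8, 26.8 and 25.8 in control libraries. LY500307 libraries were above all vehicle libraries (0.32 ± 0.08, adjusted p = 0.0219), but the offsets left 0.10 (adjusted p = 0.612), and the call was lost without vehicle replicate 1 (adjusted p = 0.122) or 2 (0.121) and without LY500307 replicate 2 (0.11). Between knockout and control cells AXIN1 was called higher without the offsets (0.31 ± 0.08, adjusted p = 0.00337) and lower with them (-0.20, adjusted p = 0.0154). APC averaged 105 ± 2.94 CPM in knockout and 96.3 ± 4.96 in control cells (0.12 ± 0.04, adjusted p = 0.0202), a call lost without knockout replicate 2 (adjusted p = 0.0794) and without control replicate 2 (0.101) or 3 (0.0713). In add-back against control cells APC was called at 0.17 ± 0.04 (adjusted p = 0.00254), and that call was made again in all 15 alternatives. GSK3B, the kinase of the complex, was called in vehicle against add-back cells (0.30 ± 0.04, adjusted p = 1.41e-06), with 0.12 under the offsets (adjusted p = 0.0113). Knockout against control gave 0.09 ± 0.04 for it (adjusted p = 0.0551), and 0.12 with the offsets, where it was called (adjusted p = 0.00893). Only 30.6% of the GSK3B counts lay in the annotated transcripts that gave its GC content and length. Its values with the offsets are therefore less certain.

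AXIN2 is both a scaffold of the complex and the most general target of β-catenin. It had 1.64, 2.42 and 1.76 CPM with LY500307, 1.31, 1.98 and 1.64 with vehicle, 3.04, 2.65 and 3.0 in add-back, 2.42, 2.74 and 2.76 in knockout and 1.97, 1.71 and 2.27 in control libraries, from 20 to 48 reads per library. Add-back and knockout libraries, which overlapped, were above all the others, though knockout replicate 1 and LY500307 replicate 2 were equal as rounded. Knockout against control cells were not called (0.40 ± 0.20, adjusted p = 0.116). Add-back against control cells were called at 0.53 ± 0.20 (adjusted p = 0.0335), which was lost in 7 of 15 alternatives, among them those without add-back replicate 1 (adjusted p = 0.0694) or 3 (0.0676) and without control replicate 1 (0.0631) or 2 (0.109). Vehicle against add-back cells gave -0.80 ± 0.20 (adjusted p = 0.00248), and -0.86 with the offsets.

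CTNNB1 had 533, 530.1 and 519 CPM with LY500307, 536, 565 and 541 with vehicle, 434, 445 and 463 in add-back, 441, 429 and 422 in knockout and 475, 466 and 471 in control libraries. The 6 LY500307 and vehicle libraries were above the other 9, and knockout libraries below control libraries. The change was small in knockout against control (-0.13 ± 0.03, adjusted p = 0.00186) and larger in vehicle against add-back cells (0.29 ± 0.03, adjusted p = 1.81e-07). With the offsets vehicle against add-back cells gave 0.15, and add-back against knockout cells, at 0.05 ± 0.03 without them (adjusted p = 0.243), were called at 0.11 (adjusted p = 0.0103). Under LY500307 against vehicle it was not called (-0.05 ± 0.03, adjusted p = 0.328). β-catenin is controlled mainly by the stability of its protein, which RNA does not measure.

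Of the TCF/LEF factors, which bring β-catenin to DNA, LEF1 moved most. It had 4.24, 3.68 and 3.64 CPM with LY500307, 3.27, 3.58 and 3.41 with vehicle, 14.1, 13.5 and 12.7 in add-back, 4.70, 6.24 and 5.94 in knockout and 6.21, 6.93 and 6.63 in control libraries. The 3 add-back libraries were above all others, knockout and control libraries overlapped, and the 6 LY500307 and vehicle libraries were below all others. LEF1 rose in add-back against knockout cells (1.26 ± 0.11, adjusted p = 5.42e-08) and against control cells (1.03 ± 0.10, adjusted p = 1.49e-07), while knockout against control cells were not called (-0.23 ± 0.12, adjusted p = 0.126). In vehicle against add-back cells it fell by 1.97 ± 0.11 (adjusted p = 3.77e-11), and LY500307 and vehicle cells were not called different (0.17 ± 0.13, adjusted p = 0.552). These calls were made again in all 15 alternatives, with 1.16 to 1.35 for add-back against knockout and -2.09 to -1.96 for vehicle against add-back cells.

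LEF1 can be transcribed into a full-length factor and into shorter forms without the β-catenin binding end. RSEM gave the coding transcripts of LEF1 73.4 ± 4.57% of its reads in add-back, 58.6 ± 12.9% in knockout and 67.1 ± 11.5% in control cells, with single libraries from 20.1 to 77.6%. At these counts the spread between libraries was too wide to compare the forms.

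TCF7L1, the factor known mostly as a repressor, had 2.66, 3.81 and 4.23 CPM with LY500307, 3.33, 3.36 and 3.0 with vehicle, 3.88, 4.20 and 4.41 in add-back, 6.98, 6.32 and 6.25 in knockout and 2.65, 3.71 and 3.22 in control libraries. Knockout libraries were above all others. TCF7L1 rose in knockout against control cells (1.02 ± 0.16, adjusted p = 3.31e-05), with 0.60 under the offsets, and fell in add-back against knockout cells (-0.64 ± 0.15, adjusted p = 0.00499).

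TCF7L2 had 26.8, 26.9 and 25.2 CPM with LY500307, 30.4, 26.9 and 26.1 with vehicle, 23.5, 23.1 and 25.9 in add-back, 24.1, 23.4 and 22.2 in knockout and 21.4, 18.8 and 20.7 in control libraries. It was called at 0.20 ± 0.07 in knockout against control cells (adjusted p = 0.0349), a call lost in 6 of 15 alternatives, among them those without knockout replicate 1 (adjusted p = 0.101) or 2 (0.0792) and without control replicate 2 (0.156) or 3 (0.0532). In add-back against control cells TCF7L2 was called at 0.25 ± 0.07 (adjusted p = 0.00727), and that call was made again in all 15 alternatives. The call in vehicle against add-back cells (0.20 ± 0.07, adjusted p = 0.0185) was lost in 8 of 15, among them those without vehicle replicate 1 (0.11, adjusted p = 0.226) and without add-back replicate 1 (0.119) or 2 (0.146), and with the offsets (0.05, adjusted p = 0.534).

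TCF7 had 8.09, 7.43 and 9.45 CPM with LY500307, 8.10, 7.90 and 9.54 with vehicle, 8.28, 9.83 and 8.75 in add-back, 12, 10.5 and 10.2 in knockout and 11.6, 11.4 and 10.6 in control libraries. Its sole call, in add-back against control cells (-0.32 ± 0.11, adjusted p = 0.0211), was lost in 6 of 15 alternatives, among them those without add-back replicate 1 (adjusted p = 0.11) or 3 (0.0768) and without control replicate 1 (0.076) or 2 (0.0678). RSEM assigned at most 2.59% of the TCF7 reads of a library to coding transcripts, the rest going mainly to transcripts with retained introns. The level of TCF7 is thus not a level of its coding mRNA in this counting. TCF7 overlaps SKP1 on the opposite strand, at 173 CPM on average.

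TCF4 was listed with the pathway under its symbol. This gene encodes a basic helix-loop-helix factor, whereas the TCF/LEF factor often called TCF4 is encoded by TCF7L2. It had 42.5, 39.3 and 40.4 CPM with LY500307, 46.2, 47.2 and 46.4 with vehicle, 40.8, 33.3 and 38.1 in add-back, 45, 43.5 and 42 in knockout and 47.6, 46.8 and 47.5 in control libraries. LY500307 libraries were below all vehicle libraries, at -0.19 ± 0.06 (adjusted p = 0.049), a call at the threshold that 11 of 15 alternatives lost, among them every one that left out a library (adjusted p = 0.0805 to 0.226) and the offsets (-0.11, adjusted p = 0.499). Add-back libraries were below all knockout libraries (-0.22 ± 0.06, adjusted p = 0.0125), a call lost without knockout replicate 1 (adjusted p = 0.0714) or add-back replicate 2 (-0.13, adjusted p = 0.137). Add-back cells were also below control cells (-0.34 ± 0.06, adjusted p = 9.14e-05), a call made again in all 15 alternatives. Vehicle against add-back cells gave 0.32 ± 0.06 (adjusted p = 0.000136), and 0.09 with the offsets (adjusted p = 0.218). RSEM gave coding transcripts 63.4 ± 20.2% of the TCF4 reads in add-back, 43.0 ± 1.48% in knockout and 37.2 ± 6.58% in control cells. Single libraries ran from 30.1 to 81.5%. The reads given to coding transcripts averaged 24.1, 18.7 and 17.6 CPM in these groups, so the falls in add-back cells are not falls of coding TCF4 mRNA in this counting.

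TNFRSF19, also named TROY, is a receptor of the tumour necrosis factor family and a reported target of β-catenin. It had 5.21, 6.16 and 4.81 CPM with LY500307, 8.75, 8.44 and 8.04 with vehicle, 0.324, 0.332 and 0.192 in add-back, 0.427, 0.381 and 0.490 in knockout and 0.303, 0.214 and 0.253 in control libraries. Untreated libraries held 3 to 8 reads each and those with vehicle 118 to 158. LY500307 libraries all lay between those of vehicle and the untreated cells. It passed the filter only through the LY500307 and vehicle libraries, so a member let in this way had to differ from the untreated cells, and vehicle against add-back cells gave 4.85 ± 0.20 (adjusted p = 4.63e-13). Under LY500307 it fell against vehicle (-0.64 ± 0.12, adjusted p = 0.00529). This was the sole member call under LY500307 made again in the 14 alternatives that gave an adjusted p (-0.74 to -0.55, adjusted p from 0.00152 to 0.0413), while DESeq2 gave none for it. In the same libraries the summed level of 9 markers of immune, endothelial and stromal cells was 19.6 to 21.0 CPM with LY500307, 18.4 to 18.7 with vehicle, 7.86 to 8.78 in add-back, 8.14 to 8.98 in knockout and 5.37 to 8.21 in control cells. CD68 and VWF were higher with vehicle (6.10 and 8.74 CPM) than in add-back cells (0.709 and 2.81 CPM). COL1A1 was lower with vehicle (2.66 CPM) than in add-back cells (4.0 CPM). PTPRC, CD3E, PECAM1 and DCN did not pass 0.736 CPM in any library. COL1A2 and PDGFRB were at or near 0 in all groups. The part of these markers in the level of TNFRSF19 was not tested.

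**Figure D4:**
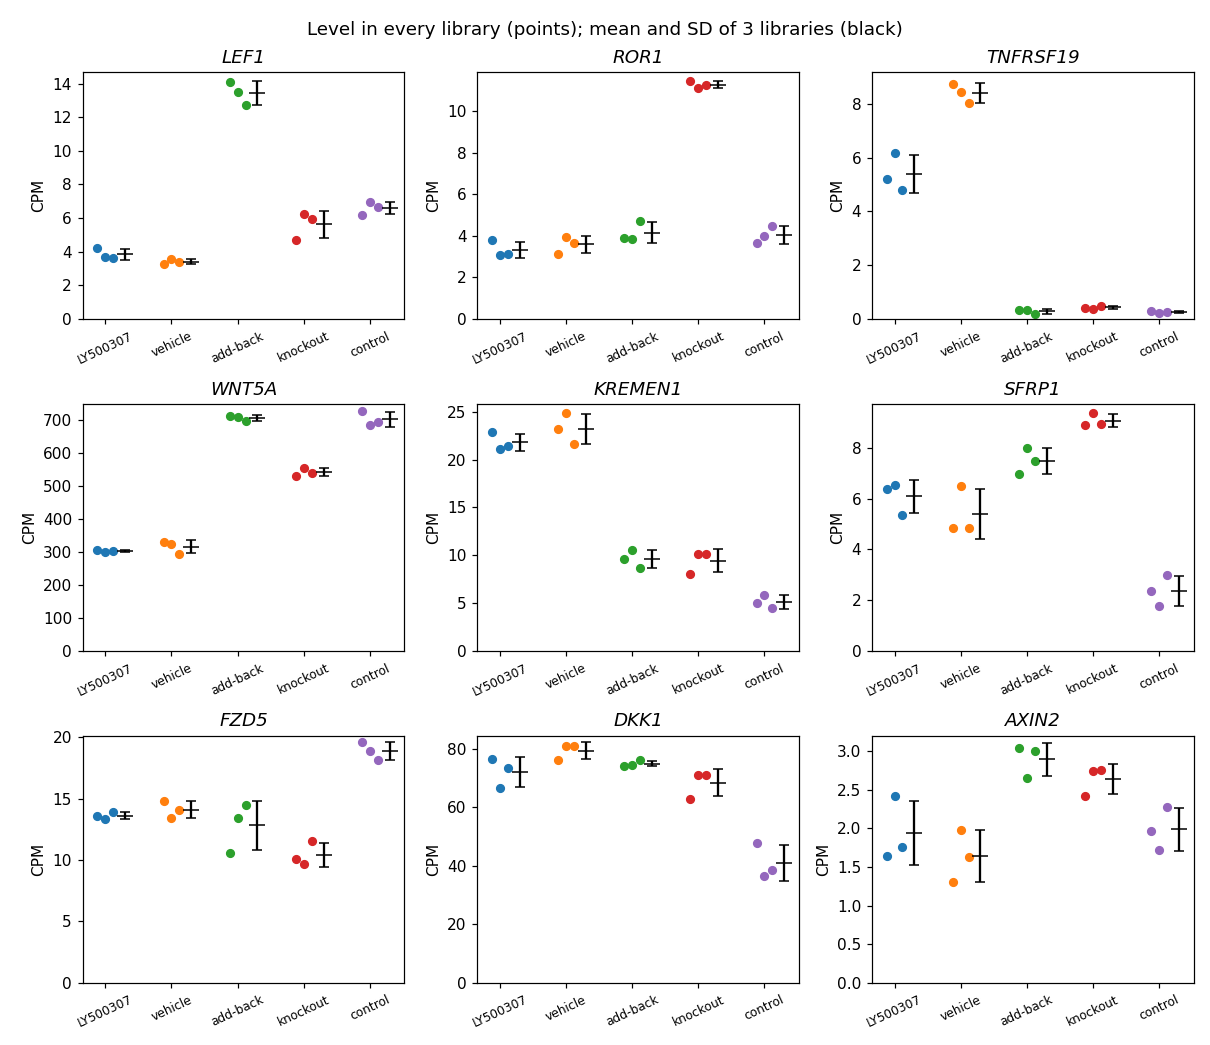
CPM of 9 members in each library (points, 3 per group) with the mean and SD of the group (black), for LY500307, vehicle, add-back, knockout and control cells, each axis starting at 0. LEF1 peaks in add-back cells, ROR1 in knockout cells and TNFRSF19 in vehicle cells, while SFRP1 and DKK1 are lowest in control cells.

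The RefSeq start of 14 tested members lay within 100 bases of the start of their most used transcript. The promoters of 4 of them, chosen after their values were seen because they were called, are shown since ERβ binds DNA and DKK1 and TNFRSF19 are reported targets of β-catenin. Each runs from 250 bases before to 50 after the RefSeq start (GRCh38.p14), 5′ to 3′ on the gene's strand. TNFRSF19 is at chr13:23579110-23579409 (plus strand), FZD1 at chr7:91264183-91264482 (plus), DKK1 at chr10:52314031-52314330 (plus) and LGR4 at chr11:27472741-27473040 (minus). Capitals mark a TCF/LEF word (CTTTGAA or CTTTGAT or CTTTGTA or CTTTGTT) or GGTCA, an arm of the estrogen response element, both sought on either strand.
TNFRSF19: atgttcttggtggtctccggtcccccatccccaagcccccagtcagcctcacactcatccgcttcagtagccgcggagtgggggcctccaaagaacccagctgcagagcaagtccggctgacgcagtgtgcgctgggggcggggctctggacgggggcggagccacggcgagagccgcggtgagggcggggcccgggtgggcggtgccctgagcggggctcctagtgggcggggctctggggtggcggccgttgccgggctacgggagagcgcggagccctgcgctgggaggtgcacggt
FZD1: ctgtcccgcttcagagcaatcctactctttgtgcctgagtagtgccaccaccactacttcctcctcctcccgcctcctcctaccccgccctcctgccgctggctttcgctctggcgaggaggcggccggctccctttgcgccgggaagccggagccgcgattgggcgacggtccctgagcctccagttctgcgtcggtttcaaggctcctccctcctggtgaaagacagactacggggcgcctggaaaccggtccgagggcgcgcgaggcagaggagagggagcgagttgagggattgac
DKK1: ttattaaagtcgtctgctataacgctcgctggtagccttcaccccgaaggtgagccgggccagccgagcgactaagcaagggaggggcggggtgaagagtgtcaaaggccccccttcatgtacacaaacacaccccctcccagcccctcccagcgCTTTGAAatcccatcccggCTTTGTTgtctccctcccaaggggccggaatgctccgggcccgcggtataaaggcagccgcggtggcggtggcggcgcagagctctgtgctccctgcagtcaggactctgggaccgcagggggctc
LGR4: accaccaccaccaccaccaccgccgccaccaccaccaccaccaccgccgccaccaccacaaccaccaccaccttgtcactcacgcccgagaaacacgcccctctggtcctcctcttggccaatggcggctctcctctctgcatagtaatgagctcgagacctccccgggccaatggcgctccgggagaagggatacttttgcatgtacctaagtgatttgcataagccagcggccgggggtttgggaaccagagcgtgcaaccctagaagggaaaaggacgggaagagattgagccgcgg
DKK1 held 2 TCF/LEF words, starting 95 and 76 bases before the RefSeq start, and the other three windows held none, nor did any of the 4 shown hold GGTCA. Of the 14 members, 4 held GGTCA (APC, DVL2, FZD8 and GSK3B), and DKK1 alone held a TCF/LEF word. A TCF/LEF word was found in 13.8% of all 35116 windows of the table and in 4 of the 55 windows of 34 members. GGTCA was found in 37.4% of all windows and in 17 of the 55, and the full element, with a GGTCA arm on each strand and 3 bases between them, in 0.057% of all and in 0 of the 55. The RefSeq start of LEF1 in the table lay 2121 bases inside its most used transcript and that of ROR1 235286 bases before its own, so that neither is shown.

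Of 103 other genes of the pathway, listed with earlier results of these data known, 75 were tested. In knockout against control cells 32 were called higher and 15 lower (62.7%, beside 46.0% of all genes), and in add-back against knockout cells 10 higher and 13 lower (30.7%, beside 19.6%). Under LY500307 against vehicle 7 were higher and 2 lower (12%, beside 7.12%). Add-back against control cells had 30 higher and 12 lower (56.0%, beside 45.8%), and vehicle against add-back cells 22 higher and 34 lower (74.7%, beside 48.1%). WIF1, a secreted inhibitor that binds Wnt ligands, averaged 8.52 ± 0.209 CPM in add-back, 19.9 ± 0.807 in knockout and 4.30 ± 1.07 in control cells. It rose in knockout against control cells (2.22 ± 0.11, adjusted p = 6.28e-12) and fell in add-back against knockout cells (-1.22 ± 0.10, adjusted p = 2.26e-08). ASCL2, a transcription factor gene reported as a Wnt target, gave 2.17 ± 0.34 (adjusted p = 3.23e-05) and -1.22 ± 0.30 (adjusted p = 0.00631) in the same comparisons. PROM1, a membrane glycoprotein gene, rose in knockout against control cells (2.23 ± 0.16, adjusted p = 8.84e-10) and in vehicle against add-back cells (2.35 ± 0.11, adjusted p = 1.26e-12), with 14.5 ± 1.44 CPM with vehicle and 2.84 ± 0.183 CPM in add-back cells.

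Several other secreted or cofactor genes stood out by the size of their change. TLE4, a corepressor of TCF/LEF factors, fell in add-back against knockout cells (-1.39 ± 0.32, adjusted p = 0.00367), at 0.616 ± 0.235 CPM in add-back and 1.67 ± 0.503 in knockout cells. SFRP4 and KREMEN2, relatives of SFRP1 and KREMEN1, fell in vehicle against add-back cells (-2.29 ± 0.29, adjusted p = 2.62e-06, and -1.73 ± 0.27, adjusted p = 3.21e-05). KREMEN2 was higher in add-back than in control cells (1.70 ± 0.28, adjusted p = 5.84e-05), as was the corepressor TLE2 (1.31 ± 0.11, adjusted p = 9.27e-09). Among the genes called under LY500307, the 3 largest changes were those of SCRIB, a polarity gene (0.62 ± 0.14, adjusted p = 0.0134), TLE3 (0.34 ± 0.06, adjusted p = 0.0044) and MYC, a reported target of β-catenin (0.33 ± 0.05, adjusted p = 0.00035). MYC averaged 72.8 ± 1.80 CPM with LY500307 and 57.9 ± 3.17 CPM with vehicle. SCRIB averaged 109.1 ± 4.78 CPM with LY500307 and 71.1 ± 13.8 CPM with vehicle. How the calls of these other pathway genes held under the alternatives was not examined gene by gene. With the offsets 244 of all genes were called under LY500307 against vehicle, beside 1389 without.

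Among the 8 tested members that are reported targets of β-catenin, 2 were called higher and none lower in knockout against control cells, where 23.4% of all genes were called higher and 22.6% lower. Add-back against knockout cells had 2 higher and 1 lower (10.4% and 9.19% of all genes), and LY500307 against vehicle 1 lower (2.35%). Against control, add-back cells had 3 higher and 1 lower (23.2% and 22.7%), and vehicle against add-back cells 1 higher and 3 lower (26.4% and 21.6%). In vehicle against add-back cells the sole rise was TNFRSF19, and the 3 falls were LEF1, AXIN2 and ZNRF3. NKD1 was among the calls in knockout against control and in add-back against knockout cells. It passed the filter only through the knockout libraries, and TNFRSF19 only through the LY500307 and vehicle libraries. Their calls against the other groups are no independent support. The fall in add-back against control cells was TCF7, whose reads went mainly to transcripts with retained introns.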

How the data were processed

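RNA-seq was done on 15 KPL4 libraries made with a stranded total RNA kit after ribosomal RNA removal, per the labels' protocols. The authors deposited expected counts per gene and per transcript. The submitters' processing notes name FastQC, Trim Galore, GSNAP, RSEM and GRCh38; versions, the annotation release and the use of strand are not given in the sources used here. Expected counts were rounded, filtered with filterByExpr, scaled with TMM and tested with edgeR 4.0.16 (quasi-likelihood, R 4.3.3) in 1 model of all 15 libraries, with Benjamini-Hochberg adjustment over 19516 genes and a threshold of 0.05. The procedure was tested on simulated data. Transcript lengths, GC content and coordinates came from GENCODE 29 and promoters from RefSeq (GRCh38.p14).

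Members and gene lists were chosen with earlier results of these data known. Members were given by library where they were among the 4 largest called rises or falls of a comparison, with a mean of at least 1 CPM and no overlap of libraries, or among the fixed names AXIN2, LGR5, RNF43, ZNRF3, NKD1, LEF1, TCF7, TCF7L2 and CTNNB1. DKK1 and ROR2 were added after their values were seen. Libraries held 12614074 to 19390378 counts, and the biological coefficient of variation was 4.99%. Libraries with the same replicate number did not deviate together (correlations from -0.0952 to 0.0603, 0 of 30 pairs above 0.1), so the numbers were not treated as pairs. Alternatives were RLE and upper-quartile factors, DESeq2 1.42.0, limma-voom (limma 3.58.1), other filters, the 6 libraries of a comparison alone, a replicate block, offsets for GC content and length, and leaving out each library.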

Additional observations from a re-analysis of the deposited data

How the results depend on the processing

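Of the member calls, 16 of 25 in knockout against control, 8 of 11 in add-back against knockout, 1 of 5 under LY500307 against vehicle, 15 of 26 in add-back against control and 18 of 23 in vehicle against add-back cells were made in every alternative that gave an adjusted p. With no filter 14 of 48 members and 4211 of 39670 genes were called in add-back against knockout cells. With the filter these were 11 of 38 and 3824 of 19516. The LY500307 comparison depended most on the settings: with GC content and length offsets 1 member and 244 of all genes were called, against 5 and 1389 without. Leaving out 1 library gave 1 to 7 members and 299 to 1844 genes (1 member and 403 genes without vehicle replicate 1, 1 and 299 without vehicle replicate 2, 2 and 586 without LY500307 replicate 1, 1 and 487 without LY500307 replicate 2). For the other comparisons, in the order above, leaving out 1 library gave 23 to 26, 9 to 12, 21 to 24 and 22 to 23 members, and 7946 to 8491, 2918 to 3596, 7826 to 8401 and 8018 to 8934 genes.

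Values that changed sign with the offsets in knockout against control cells were FZD2 (-0.21), DVL1 (-0.07), DVL2 (-0.04) and AXIN1 (-0.20), and in add-back against control cells DVL1 (-0.04), DVL2 (-0.05) and AXIN1 (-0.28). TCF7 in knockout against control cells ranged from -0.11 to 0.01 when 1 library was left out, with 0.01 without knockout replicate 3. The cause was not tested. Among all calls of add-back against knockout cells 53.1% were higher, beside 42.0% with upper-quartile factors, 61.5% with DESeq2, 61.8% with no filter and 64.9% with the offsets. Under LY500307 67.0% were higher, beside 83.1% with no filter, 76.4% with a minimum of 1 CPM in 3 libraries and 76.6% with the 6 libraries alone. With the replicate block 25, 10, 5, 25 and 23 of the 38 members were called, and 8807, 3561, 1216, 8745 and 9123 of all 19516 genes. Members with few reads, such as NKD1 and TNFRSF19 in untreated cells, are limited by depth.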
